A study of Drosophila melanogaster with 16 samples.

Results

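The 72 genes described here encode proteins of the mitochondrial ribosome of Drosophila melanogaster. They were taken by symbol, as every gene whose name starts with mRpL or mRpS followed by a digit, out of 13892 genes with a coding sequence (CDS). By the letter in their names 46 belong to the large subunit (L) and 26 to the small subunit (S). Of the 72, 45 were classed as having a counterpart in bacterial ribosomes (29 L and 16 S) and 27 as having none (17 L and 10 S). The class does not follow the number in the symbol alone: mRpS24 was classed with the first group. The members lie on chromosomes X (11 genes), 2L (12), 2R (12), 3L (17) and 3R (20).

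The mitochondrial ribosome makes the few proteins that mitochondrial DNA encodes, which are subunits of the respiratory chain and of ATP synthase. Its own proteins are all encoded in the nucleus, translated on cytoplasmic ribosomes and imported into mitochondria, while its RNAs come from mitochondrial DNA. Many of its proteins descend from those of a bacterial ribosome and others were added in the course of eukaryote evolution. In mammals the counterparts of mRpS30 and mRpS18A sit in the large subunit despite the letter in their names.

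The RNA came from OSS cells, a line of ovarian follicle cells in culture, electroporated with 500 pmol of siRNA for a 10 cm plate and harvested after 6 days. There were 4 siRNA groups: siPIWI, against the Argonaute gene piwi, which silences transposons through piRNAs; siPAF1, against the Paf1 gene; siPIWI with siPAF1, called the double knockdown here; and siGFP, the negative control. Each culture gave total RNA from a cytoplasm lysate, called cyto, and from pellets, called NUN as in the labels, where the abbreviation is not explained. Each of the 8 groups had 2 strand-specific libraries, numbered OSS_146 and OSS_147. The cells are a single line, and nothing in the labels says whether the 2 libraries of a group came from separate cultures, so the p-values measure only the spread between libraries, which may be technical. In bulk RNA of this kind, fewer cells of a type and less RNA per cell cannot be told apart.

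A NUN library held 2080794 to 4623806 unique counts on the sense strand of CDSs and a cyto library 663876 to 1759084. The siRNA targets were checked in cyto, in CPM, the usual read count relative to library size, after TMM scaling. Levels of piwi were 86.4 and 42.5 CPM in siPIWI cells and 101 and 36.2 CPM after double knockdown, against 288 and 308 CPM in siGFP cells. The gene atms, the Paf1 gene of Drosophila, had 10.7 and 5.96 CPM in siPAF1 cells and 11.7 and 9.64 CPM after double knockdown, against 167 and 171 CPM in siGFP cells. In cyto both targets were below siGFP in every library of their own knockdowns, but only atms passed the test (log2 −4.28 ± 0.48 SE with siPAF1, adjusted p = 5.87e-05), while piwi did not (log2 −2.18 ± 0.50 with siPIWI, adjusted p = 0.303). In NUN neither passed: the log2 change of piwi was −0.49 with siPIWI (adjusted p = 0.9997) and −0.18 in the double knockdown (adjusted p = 0.992), where 1 of the 2 libraries was above both siGFP libraries (1073 and 749 CPM against 1060 and 1008 CPM). That of atms in NUN was −1.66 with siPAF1 (adjusted p = 0.237) and −1.41 in the double knockdown (adjusted p = 0.397). Among follicle cell markers, 10 of 10 had at least 10 counts in every NUN library and 3 of 10 in every cyto library. By the same limit 4 of 5 neuron, 4 of 10 blood, 3 of 7 muscle and 2 of 9 germline markers passed in NUN. In cyto 1 of 10 blood markers passed and none of the neuron, muscle or germline markers. Follicle cell markers summed to 5140 to 6321 CPM in NUN and 180 to 724 CPM in cyto, without TMM scaling. The lists of germline, blood, muscle and neuron markers summed to 2.65 to 69.4 CPM in cyto and 55.5 to 1127 CPM in NUN, without TMM scaling, with He at 0 in both fractions and osk and TpnC73F at 0 in cyto.

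All 72 members had a count in every library except mRpL33, which had 0 in 1 siGFP library of cyto. The count filter kept all 72 in NUN, 71 in cyto, where mRpL33 dropped out, and all 72 in the fit across both fractions. The mean count of a member ranged from 9.75 to 329 in a NUN library, with a median over members of 45.4. In a cyto library it ranged from 4.75 to 2284, with a median of 69.3.

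The first comparison asked whether the members' relative levels were higher or lower in the NUN pellet than in the cytoplasm. Levels were scaled to the counts of each library, so these differences compare a gene's share of NUN libraries with its share of cyto libraries. How a gene's RNA was divided between pellet and cytoplasm was not tested. Members were lower in NUN than in cyto with all 4 siRNA treatments: every one of the 72 fitted log2 differences was below 0 in each, as were 45.8%, 45.8%, 45.7% and 42.6% of all genes tested with siPIWI, siPAF1, the double knockdown and siGFP. The number that passed the test, at an adjusted p under 0.05, was 69 with siPIWI, 70 with siPAF1, 67 in the double knockdown and 68 with siGFP, and 67 members passed with all 4. None was higher in NUN. Of all 7982 genes tested, 30.1% were called lower in NUN with siPIWI, 32.6% with siPAF1, 31% in the double knockdown and 30.3% with siGFP.

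The median log2 difference of the members was −3.14 with siPIWI, −3.30 with siPAF1, −3.17 in the double knockdown and −3.76 with siGFP. The median over all genes tested was 0.26, 0.32, 0.27 and 0.55 in the same 4 treatments. In siGFP cells the 2 NUN and the 2 cyto libraries did not overlap for 70 of 72 members, the exceptions being mRpL33 and mRpS30. In siPIWI and siPAF1 cells they did not overlap for any of the 72, and in the double knockdown mRpS30 alone overlapped. The share of all genes without such overlap is not given here, so these counts describe the members alone. Of all 7982 genes tested with siGFP, 2925 were called higher and 2415 lower in NUN. With siGFP, 62 of the 72 members were among the 25% of genes furthest toward cyto.

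The members differed widely in how far toward cyto they lay. With siGFP, 39 of 72 had a cyto mean at least 10 times the NUN mean and 3 had one under 2 times. The share of all genes past these limits is not given here. The middle of the list ran from a log2 of −5.47 (lower quartile) to −2.12 (upper quartile). The steepest differences were those of mRpL27, mRpS21 and mRpL34 with siGFP, and of mRpL27, mRpS21 and mRpS24 with each of the 3 knockdown siRNAs.

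**Figure D1:**
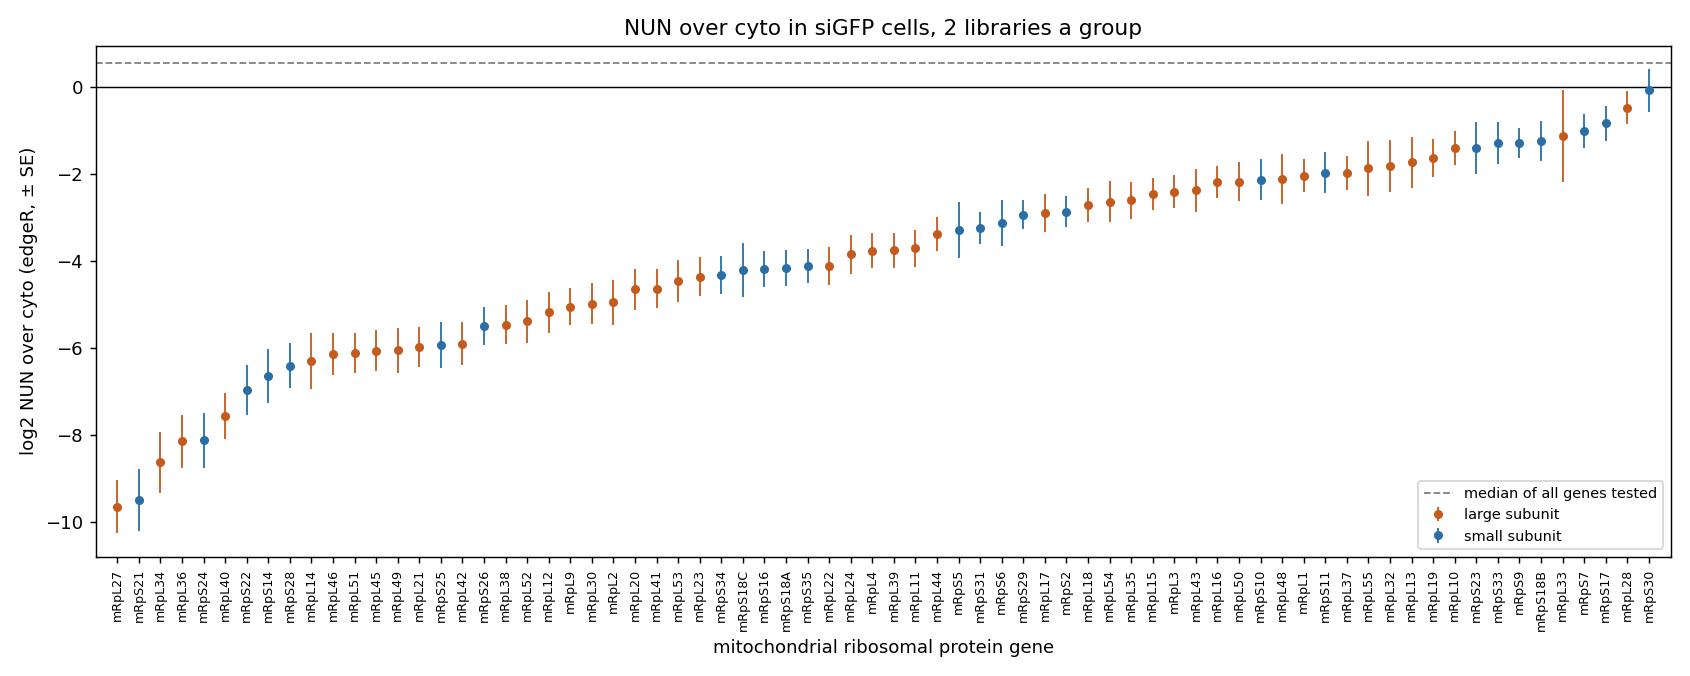
Fitted log2 difference of NUN over cyto in siGFP cells for each of the 72 members (points, edgeR) with its standard error (bars), ordered from the lowest; colours mark the large and small subunit and the dashed line the median of all genes tested, 0.55. All 72 points lie below 0, from −9.65 for mRpL27 to −0.08 for mRpS30, and both subunits are spread along the order.

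The gene mRpL27 (chromosome 2L, 4458979 to 4459602, minus strand, in the coordinates of the deposited files, whose genome build is not given) encodes a large-subunit protein that in bacteria lies by the peptidyl transferase centre. It had 4.43 and 5.35 CPM in NUN against 1939 and 2005 CPM in cyto with siPIWI, and 4.80 and 4.48 CPM in NUN against 4887 and 2629 CPM in cyto with siGFP. No other member had a lower fitted value with siGFP, log2 −9.65 ± 0.61 (adjusted p = 8.52e-11), which placed it at rank 8 from the cyto end among the 7982 genes.

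The gene mRpS21 (3R, 9207050 to 9207514, minus strand) encodes one of the shortest proteins of the set, the counterpart of bacterial S21. Its NUN level was 5.92 to 13.6 CPM over the 8 NUN libraries, against 1670 to 8511 CPM over the 8 cyto libraries. The log2 difference was −8.86 ± 0.69 with siPIWI, −7.77 ± 0.66 with siPAF1, −8.11 ± 0.67 in the double knockdown and −9.49 ± 0.71 with siGFP. Together mRpS21 and mRpL27 took 24.7% to 35.5% of the counts of all 72 members in a cyto library and 1.22% to 2.41% in a NUN library. The family's summed level in cyto is therefore weighted toward this pair.

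The gene mRpL34, for the counterpart of bacterial L34, had 1.60 and 2.92 CPM in NUN against 1472 and 399 CPM in cyto with siGFP (log2 −8.63 ± 0.70, adjusted p = 4.10e-10). In the double knockdown it had 4.36 and 2.93 CPM in NUN against 252 and 311 CPM in cyto (log2 −6.26 ± 0.63). The gene mRpS24 (3R, 19988528 to 19989246, minus strand), whose mammalian protein corresponds to bacterial S3, had 1.92 and 1.41 CPM in NUN against 384 and 238 CPM in cyto with siPIWI (log2 −7.47 ± 0.63, adjusted p = 2.63e-09). For both genes each cyto library was far above each NUN library, and the 2 cyto libraries of siGFP also differed from each other.

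At the other end of the order, 5 members did not pass the test with at least 1 siRNA. These were chosen after their values were seen: mRpS30, mRpL28, mRpS17, mRpL33 and mRpL10. The gene mRpS30 (X, 15680085 to 15682072, plus strand) has the longest CDS of the family, 1674 bases, and did not pass with any siRNA. It had 25.4 and 24.3 CPM in NUN against 11.8 and 40.1 CPM in cyto with siGFP (log2 −0.08 ± 0.49, adjusted p = 0.895). With the knockdown siRNAs its log2 difference ran from −0.90 (double knockdown, adjusted p = 0.0557) to −0.70 (siPIWI, adjusted p = 0.145). Its direction rests on 1 cyto library: the difference was 1.09 with siGFP without OSS_147 of siGFP, and 0.056 in the double knockdown without OSS_146 of that group. For each of these 5 members the call with at least 1 siRNA also turned on the setting or on a library left out.

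The gene mRpL28 (2L, 4973977 to 4975284, plus strand), for the counterpart of bacterial L28, had 59.5 and 62.5 CPM in NUN against 96.9 and 73.6 CPM in cyto with siGFP (log2 −0.48 ± 0.38, adjusted p = 0.269). It passed only with siPAF1, at log2 −0.93 ± 0.36 (adjusted p = 0.0251), and the difference between siRNAs was not called. The gene mRpS17 likewise passed only with siPAF1 (log2 −0.90 ± 0.34, adjusted p = 0.0227; −0.84 ± 0.40 with siGFP, adjusted p = 0.0674). The gene mRpL33 has the shortest CDS, 195 bases, and too few counts to place: with siGFP it had 5 and 14 counts in NUN and 4 and 0 in cyto (log2 −1.13 ± 1.05, adjusted p = 0.350). It passed with siPIWI alone (log2 −2.49 ± 0.75, adjusted p = 0.00630).

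**Figure D2:**
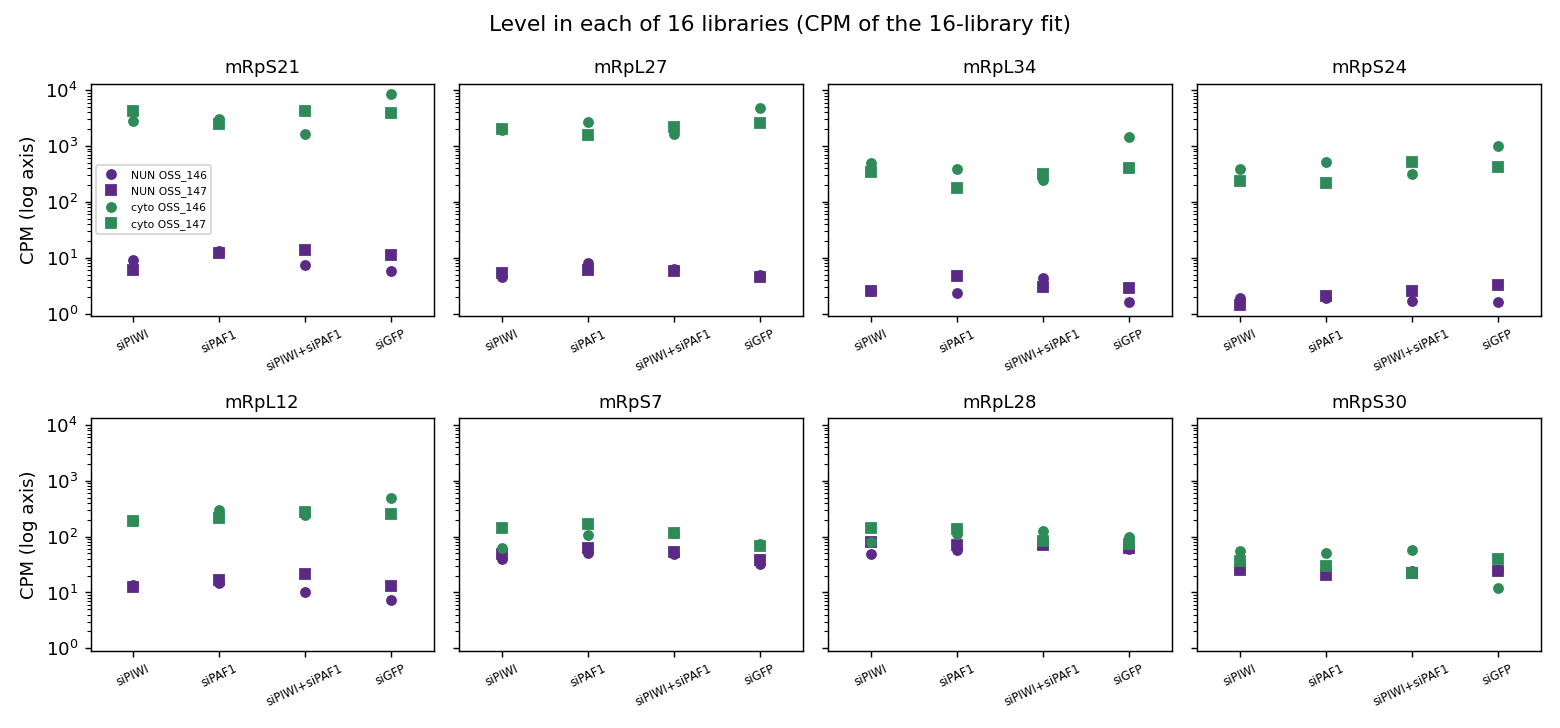
Level of 8 members in each of the 16 libraries (CPM, log axis), by siRNA, with NUN in purple, cyto in green, circles for OSS_146 and squares for OSS_147. For mRpS21, mRpL27, mRpL34 and mRpS24 the NUN points lie between 1.41 and 13.6 CPM and the cyto points between 177 and 8511 CPM. The fractions lie closer together for mRpS7, mRpL28 and mRpS30. Among these, mRpS7 was still called lower in NUN with siGFP, without overlap (log2 −1.02 ± 0.39, adjusted p = 0.0253).

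Genes whose proteins work side by side were not alike in this measure. The stalk of the large subunit, which recruits translation factors, is formed by L12 on a base of L10 and L11. With siGFP mRpL12 had a log2 difference of −5.18 ± 0.47, mRpL11 of −3.71 ± 0.42 and mRpL10 of −1.41 ± 0.39, all past the threshold, though mRpL10 not without OSS_146 of siGFP in cyto (adjusted p = 0.0627). The NUN libraries of mRpL12 held 7.21 and 12.8 CPM against 487 and 252 CPM in cyto, and those of mRpL10 held 18.7 and 33.9 CPM against 82.7 and 58.0 CPM in cyto. The 3 genes related to bacterial S18 also differed: mRpS18A lay at −4.16 ± 0.41, mRpS18C at −4.20 ± 0.62 and mRpS18B at −1.25 ± 0.46 with siGFP. The gene mRpS18B had 10.7 and 13.4 CPM in NUN against 37.8 and 20.1 CPM in cyto, so its groups did not overlap either. Its adjusted p was 0.353 without OSS_146 of siGFP in cyto and 0.0763 without OSS_146 of siGFP in NUN. The differences between genes in this value were not tested.

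Members of both subunits and of both origins lay toward cyto, and the medians differed more between origins than between subunits. With siGFP 44 of 46 large-subunit members and 24 of 26 small-subunit members were called lower in NUN, with median log2 differences of −3.80 and −3.27. Of the members classed as having a bacterial counterpart, 42 of 45 were called lower (median −3.29), and of those without one, 26 of 27 (median −4.32). With siPIWI those last medians were −2.74 and −3.61, with siPAF1 −3.06 and −3.80, and in the double knockdown −2.73 and −3.42. The differences between these classes were not tested.

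Mitoribosome genes that carry other names were also lower in NUN. The gene tko (technical knockout), for the S12 protein, had 22.2 and 17.5 CPM in NUN against 298 and 187 CPM in cyto with siGFP (log2 −3.61 ± 0.44, adjusted p = 2.00e-07). The gene bonsai, for the S15 protein, had 2.94 and 2.53 CPM in NUN against 44.9 and 58.0 CPM in cyto (log2 −4.23 ± 0.48, adjusted p = 5.59e-08). All 4 genes on this list were called lower in NUN with each siRNA. One of the 4, Rlb1, is not named as a mitoribosome gene in the later annotation.

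Other gene groups of mitochondria were placed beside the members by their counts and medians, with no test between lists. Of the subunits of the respiratory chain and ATP synthase, 63 of 69 tested were called lower in NUN with siGFP (median −3.92), and of the cytoplasmic ribosomal proteins, 87 of 88 (median −6.54). The factors of mitochondrial translation, which act on the mitoribosome, had 6 of 11 called lower and a median of −2.09. For example EfTuM, the mitochondrial elongation factor Tu, had a log2 difference of −2.18 ± 0.36. The import list had 10 of 17 called lower and 3 called higher (median −1.40), among them the chaperones Hsp60 at −3.54 ± 0.49 and Hsc70-5 at 1.37 ± 0.41. The list of genes for mitochondrial DNA and RNA factors had 9 of 16 lower and 2 higher (median −3.04). The mitochondrial aminoacyl-tRNA synthetases, which charge the tRNAs that the mitoribosome reads, had 3 of 10 lower and 3 higher (median 0.05). Among them CG31739 lay at 2.13 ± 0.42 and CG7441 at 1.14 ± 0.42, both higher in NUN.

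Members have short CDSs, with a median of 574.5 bases against 1431 for all genes tested, and the fraction difference went with coding length over all genes. Spearman's rho between the log2 difference with siGFP and coding length was 0.54 over the 7982 genes and 0.26 over the 72 members. These are descriptions across genes that share the same 4 libraries, and genes are not independent replicates. Between 300 and 600 bases, the 38 members had a median of −4.26 against −2.04 for all 886 genes of that length. From 600 to 900 bases the 15 members had −3.76 against −1.39 for 1018 genes, and from 900 to 1200 bases the 12 members had −3.09 against −0.59 for 1107 genes. In each of these bins 59.5% to 74.5% of all genes had a difference below 0. Within these length classes the members' median thus lay further toward cyto than that of all genes. The part of coding length in the fraction difference was not tested beyond this.

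**Figure D3:**
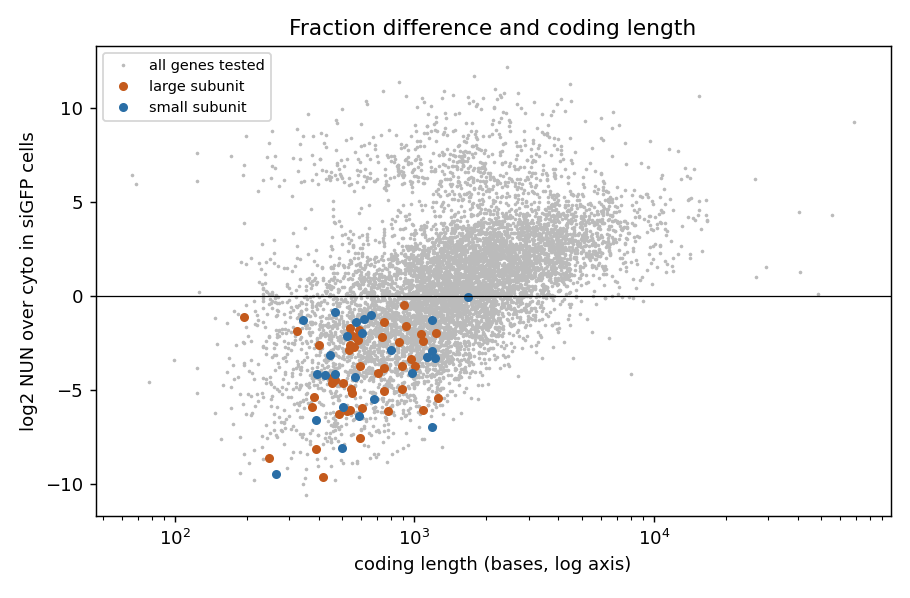
Fitted log2 difference of NUN over cyto in siGFP cells against coding length in bases (log axis) for 7982 genes (grey) and the 72 members, coloured by subunit. Members occupy the short end, 195 to 1674 bases, and lie in the lower part of the cloud at most lengths, with rho 0.54 over all genes and 0.26 over members.

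Levels per kilobase of CDS showed a wide range in cyto and a narrow one in NUN. Averaged over the 8 NUN libraries, members ranged 22.4-fold, from 5.57 ± 1.28 CPM per kb for mRpL40 to 125 ± 20.4 for mRpL28 (SD, n = 8). Their median of 25.7 was near that of all genes tested in NUN, 30.7. After mRpL28 came mRpS7 at 122 ± 24.0 and mRpS17 at 91.4 ± 16.7 CPM per kb, and above mRpL40 at the low end came mRpS24 at 7.05 ± 2.11 and mRpS18C at 11.8 ± 6.46. Among the top 3, and among the lowest 3, neighbours in the order overlapped within 1 SD. This SD pools all siRNA groups and does not compare genes within a library. Within each NUN library mRpS7 lay above mRpS17 per kb, while the order of the other neighbours changed between libraries.

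In cyto the range was 643-fold, from 13.3 ± 5.65 CPM per kb for mRpS30 to 8565 ± 4559 for mRpS21 (SD, n = 8). Next below mRpS21 were mRpL27 at 3429 ± 1449 and mRpL34 at 1137 ± 969, and next above mRpS30 were mRpL19 at 19.2 ± 4.38 and mRpL32 at 22.7 ± 11.8. Each of these genes overlapped its neighbour in the order within 1 SD over the libraries. As in NUN, this SD pools all siRNA groups and does not compare genes within a library. Within each cyto library mRpS21 lay above mRpL27 per kb, and mRpL27 above mRpL34. The order of mRpS30, mRpL19 and mRpL32 changed between libraries. The member median in cyto, 78.1 CPM per kb, lay above the 17.9 of all genes tested, while respiratory chain subunits had a median of 355 and cytoplasmic ribosomal proteins 5705. The order of members in NUN said little about their order in cyto, with a Spearman's rho of 0.19 over 71 members. Between the 2 libraries of a group the order was kept, with rho from 0.83 to 0.95. These correlations are across genes that share libraries.

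The second question was whether knockdown of piwi, the Paf1 gene or both changed the members' levels. In NUN no member passed the test in any of the 3 comparisons with siGFP, in edgeR or in the DESeq2 Wald test. The background was small as well: 0.121% of 8232 genes were called with siPIWI, 0% with siPAF1 and 0.0121% in the double knockdown. At an unadjusted p under 0.05 there were 1, 4 and 2 members, against 2.17%, 10.2% and 5.89% of all genes. Member medians were 0.07, −0.02 and 0.07 on the log2 scale with siPIWI, siPAF1 and the double knockdown, and the medians of all genes were 0.0026, −0.0029 and 0.0027. The 3 comparisons share the siGFP libraries. Within a fraction CPM was scaled over the 8 libraries of that fraction, so a gene's values differ from those given for NUN over cyto, which were scaled over all 16.

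The family's share of NUN counts also stayed in a narrow band. Members summed to 1594 and 1577 CPM (relative to all CDS counts of a library, without TMM scaling) with siPIWI, 1447 and 1618 with siPAF1, 1652 and 1643 in the double knockdown, and 1466 and 1488 with siGFP. The siPIWI and double-knockdown pairs lay above both siGFP libraries and the siPAF1 pair lay on either side of them. With 2 libraries against 2, the smallest two-sided p an exact permutation test can give is 0.333, and no other test of these sums was made.

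Among NUN members that averaged 20 counts or more in the compared libraries, the highest and lowest fitted values show the size of what was not called. The highest with siPIWI was mRpS26, at 32.7 and 38.5 CPM with siPIWI against 23.6 and 24.3 with siGFP (log2 0.56 ± 0.24, adjusted p = 0.9997). The next were mRpS6 and mRpL46 (0.47 and 0.41), and the lowest were mRpL13, mRpL32 and mRpS25 (−0.54, −0.49 and −0.46). With siPAF1 the highest were mRpS5, mRpL11 and mRpL14 (0.78, 0.74 and 0.73) and the lowest mRpL19, mRpS22 and mRpL13 (−0.86, −0.75 and −0.72). The gene mRpL19 had 11.4 and 8.90 CPM with siPAF1 against 21.8 and 15.2 with siGFP, without overlap (log2 −0.86 ± 0.35, adjusted p = 0.457). In the double knockdown the highest were mRpL12, mRpL23 and mRpL24 (0.65, 0.60 and 0.60) and the lowest mRpL17, mRpL13 and mRpL3 (−0.53, −0.48 and −0.42). Some members with fewer counts had values further out. The gene mRpS18C had 5.32 and 8.38 CPM in siPAF1 cells and 5.89 and 8.59 CPM after double knockdown, against 1.82 and 4.05 CPM with siGFP, without overlap. Its log2 change was 1.18 ± 0.67 with siPAF1 (adjusted p = 0.555) and 1.25 ± 0.68 in the double knockdown (adjusted p = 0.898). Also further out were mRpL53 (0.53), mRpL36 (0.45) and mRpS24 (−0.53) with siPIWI, and mRpL53 (0.79), mRpL36 (0.68), mRpL34 (0.64), mRpL48 (−0.45) and mRpL40 (−0.45) in the double knockdown.

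Some of these extremes rest on 1 library. The gene mRpL13 had 20.4 and 6.07 CPM in the siGFP libraries of NUN, and without OSS_146 of siGFP its log2 change was 0.55 with siPIWI, 0.36 with siPAF1 and 0.61 in the double knockdown, all of the other sign. The gene mRpL14 had 0.909 and 11.1 CPM in the same libraries, and without OSS_146 of siGFP its siPAF1 value was −0.07. The gene mRpS5 had 108 and 107 CPM with siPAF1 against 24.1 and 99.2 with siGFP. It was the one member with reads that align at several places, and its count of all alignments was 2.65 to 6.72 times its unique count over the 16 libraries, so its level is uncertain.

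In cyto no member passed in edgeR or in the DESeq2 Wald test either, with a background of 0% of 5714 genes called with siPIWI, 0.105% with siPAF1 and 0.0175% in the double knockdown. The fitted values nevertheless lay mostly below 0: 56 of 71 with siPIWI, 50 with siPAF1 and 54 in the double knockdown, against 42.2%, 48% and 44.1% of all genes. Member medians were −0.43, −0.39 and −0.41, against 0.18, 0.04 and 0.11 for all genes. Other lists had cyto medians below 0 as well: −0.61, −0.20 and −0.30 for the cytoplasmic ribosomal proteins and −0.49, −0.04 and −0.18 for the respiratory chain subunits, with the members not tested against either. The SD of the difference between groups in the members' median level was 0.47, 0.25 and 0.27 on the log2 scale. The siPIWI median was smaller in size than its SD and the other medians were larger. With 2 libraries a group and the same siGFP libraries in each comparison, this does not show a change beyond library spread. The members' median was not tested. At an unadjusted p under 0.05 there were 14, 8 and 14 members, which is 14 of 71 against 15.1% of all genes with siPIWI, 8 of 71 against 9.68% with siPAF1 and 14 of 71 against 11.3% in the double knockdown.

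**Figure D4:**
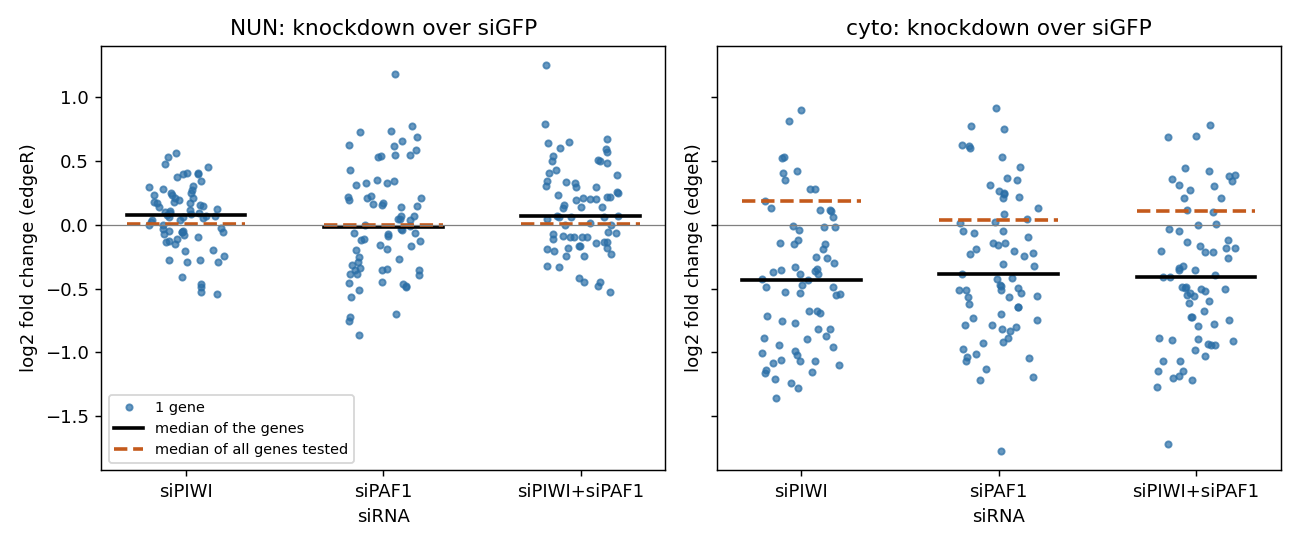
Fitted log2 fold change of each member (points) with siPIWI, siPAF1 and both siRNAs over siGFP, in NUN (left, 72 genes) and cyto (right, 71 genes), with the members' median (black line) and the median of all genes tested (dashed). In NUN the medians lie between −0.02 and 0.07; in cyto they lie between −0.43 and −0.39, and no member passed the test.

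The 3 cyto comparisons share the same siGFP libraries, and these 2 differed from each other. Members summed to 11418 and 11846 CPM with siPIWI, 11004 and 9170 with siPAF1, 10607 and 10405 in the double knockdown, and 14114 and 11538 with siGFP. OSS_146 of siGFP was the highest of the 8 libraries, and OSS_147 of siGFP lay below OSS_147 of siPIWI. Without mRpS21 and mRpL27 the sums were 7583 and 7967 with siPIWI, 7972 and 6593 with siPAF1, 7991 and 7128 in the double knockdown, and 9105 and 8117 with siGFP, where both siGFP libraries were above the other 6. Both libraries of a knockdown were below both siGFP libraries for 26 of 71 members with siPIWI, 26 with siPAF1 and 31 in the double knockdown, against 20.3%, 23% and 20% of all genes. They were above both for 0, 6 and 5 members, against 21.3%, 26.5% and 24.6% of all genes.

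Without OSS_146 of siPIWI the siPIWI median in cyto was nearer 0, and without OSS_147 of siPIWI it was further below it; over the libraries left out in turn it ran from −0.85 to −0.16. The siPAF1 median ran from −0.57 to −0.22 and that of the double knockdown from −0.56 to −0.29. The library OSS_146 of siPIWI also had the highest sum of follicle cell markers in cyto, 724 CPM against 180 to 424 in the other 7, and the highest of neuron markers, 52.0 against 4.17 to 28.4. Its share of CDS counts on the opposite strand was 0.761%, against 0.359% to 0.629% in the others. The part of these differences in the members' values was not tested.

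**Figure D5:**
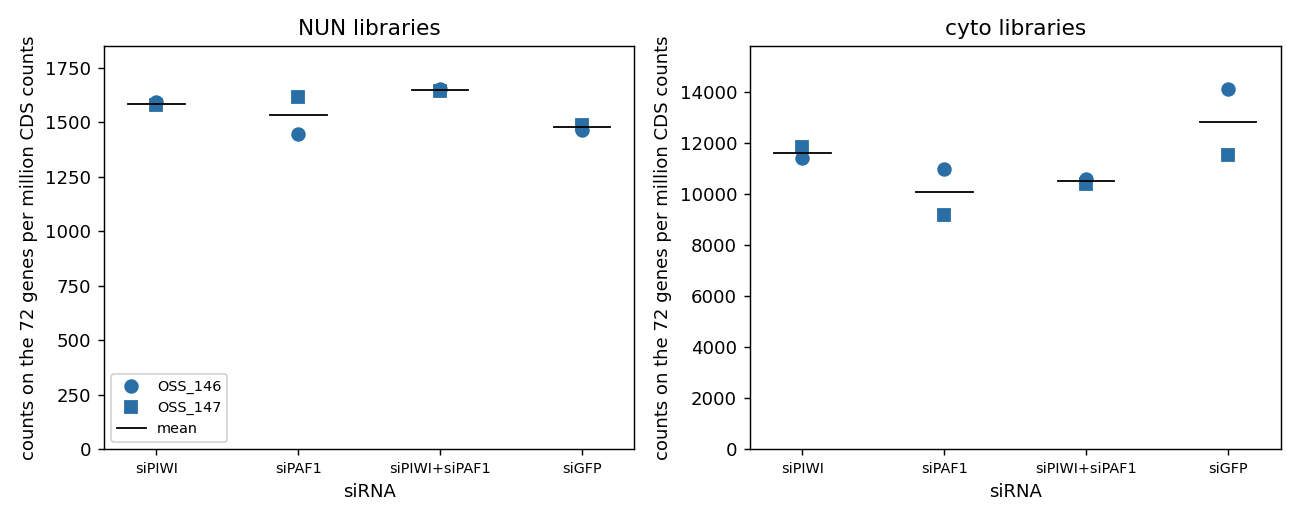
Level of the 72 members together, in CPM without TMM scaling, in each NUN library (left) and cyto library (right), by siRNA, with circles for OSS_146, squares for OSS_147 and a line at the mean of the pair. NUN libraries lie between 1447 and 1652; in cyto the siGFP libraries lie at 14114 and 11538 and the others between 9170 and 11846.

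The lowest fitted value in cyto was that of mRpL34. Its level was 304 and 204 CPM in siPIWI cells, 211 and 104 CPM in siPAF1 cells, 146.6 and 183 CPM after double knockdown, and 851 and 233 CPM in siGFP cells. The siPAF1 and double-knockdown libraries lay below both siGFP libraries, which themselves lay far apart. The log2 change was −1.77 ± 0.54 with siPAF1 (adjusted p = 0.267) and −1.72 ± 0.54 in the double knockdown (adjusted p = 0.271). With only the compared groups in the fit its adjusted p was 0.0372 with siPAF1 and 0.0369 in the double knockdown. With siPAF1 it also passed when the library numbers were fitted as a block (adjusted p = 0.0289) and with no count filter (adjusted p = 0.0479).

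Among cyto members that averaged 20 counts or more, the lowest with siPIWI were mRpL52, mRpS14 and mRpL21 (log2 −1.36, −1.28 and −1.24). The gene mRpL52 had 59.8 and 112 CPM with siPIWI against 299 and 134 CPM with siGFP, without overlap (log2 −1.36 ± 0.48, adjusted p = 0.303). Without OSS_147 of siPIWI its adjusted p was 0.0172 (log2 −1.89). With siPAF1 the next lowest after mRpL34 were mRpL52 and mRpS21 (−1.22 and −1.19), and in the double knockdown mRpL36 and mRpS14 (−1.27 and −1.22). The gene mRpS21, the most abundant member, had 1684 and 1475 CPM with siPAF1 against 4922 and 2288 CPM with siGFP (adjusted p = 0.459).

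A few members had values above 0 in cyto. The gene mRpS7, whose bacterial counterpart binds the RNA of the small subunit, was among the 3 highest that averaged 20 counts or more in all 3 comparisons, with 37.0 and 85.1 CPM in siPIWI cells, 58.8 and 98.4 CPM in siPAF1 cells and 66.8 and 67.5 CPM after double knockdown, against 42.4 and 40.3 CPM in siGFP cells. Its log2 change was 0.53 ± 0.47, 0.92 ± 0.46 and 0.70 ± 0.46, with adjusted p of 0.566, 0.528 and 0.553. The others were mRpS30 (0.90) and mRpS10 (0.42) with siPIWI, mRpS17 (0.63) and mRpS33 (0.62) with siPAF1, and mRpS30 (0.69) and mRpS17 (0.45) in the double knockdown. With fewer counts, mRpS23 had 0.81, 0.75 and 0.78 in the 3 comparisons, mRpL32 had 0.53 with siPIWI and mRpL55 had 0.77 with siPAF1. Of the values named here with at least 20 counts, 3 came from libraries that did not overlap those of siGFP. These were mRpS7 with siPAF1 and in the double knockdown, and mRpS17 in the double knockdown. Members not named for a comparison could also lie above both siGFP libraries, as did mRpL11, mRpS10 and mRpS33 in the double knockdown.

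Double knockdown was set against each single knockdown to ask whether the second siRNA added a change. No member passed in edgeR or the DESeq2 Wald test in either fraction, and none had an unadjusted p under 0.05, against 3.61% of all genes in NUN over siPIWI, 2.81% in NUN over siPAF1, 2.61% in cyto over siPIWI and 0.893% in cyto over siPAF1. At the adjusted threshold 0% of all genes were called in NUN against either single knockdown, 0.0175% in cyto against siPIWI and 0% in cyto against siPAF1. Member medians were 0.12 against siPIWI and 0.10 against siPAF1 in NUN, and 0.00 and −0.08 in cyto. Among members that averaged 20 counts or more, the highest and lowest values in NUN against siPIWI were those of mRpS25, mRpS21 and mRpL10 (0.51, 0.45 and 0.43) and of mRpL48, mRpS6 and mRpL17 (−0.70, −0.61 and −0.55). Against siPAF1 they were mRpL44, mRpL19 and mRpL23 (0.71, 0.63 and 0.60) and mRpS5, mRpS18B and mRpS18A (−0.64, −0.50 and −0.48). With fewer counts, mRpS18C had 1.07 ± 0.64 and mRpL34 0.50 against siPIWI, and mRpL33 had 0.92 against siPAF1.

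In cyto, by the same limit, the values against siPIWI were highest for mRpS2, mRpL11 and mRpL30 (0.77, 0.63 and 0.56) and lowest for mRpL34, mRpL9 and mRpL17 (−0.63, −0.58 and −0.47). The gene mRpS2 had 33.8 and 36.2 CPM in the double knockdown against 24.7 and 14.7 CPM with siPIWI, without overlap (log2 0.77 ± 0.45, adjusted p = 0.9993). Against siPAF1 the highest were mRpS6, mRpS5 and mRpS11 (0.69, 0.43 and 0.32) and the lowest mRpL18, mRpL20 and mRpL49 (−0.86, −0.61 and −0.49). With fewer counts, mRpL48 had −0.62 against siPIWI and −0.81 against siPAF1.

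The last comparison asked whether the fraction difference itself changed with knockdown, as the difference of NUN over cyto between a knockdown and siGFP. No member passed in edgeR or the DESeq2 Wald test, and 0% of all genes were called in each of the 3. At an unadjusted p under 0.05 there were 9 members with siPIWI, 5 with siPAF1 and 9 in the double knockdown, against 9.18%, 5.15% and 5.64% of all genes. Member medians were 0.51, 0.33 and 0.46, against −0.24, −0.09 and −0.16 for all genes, so that by its median the fraction difference of the members was less steep with the knockdown siRNAs than with siGFP. The SD of these differences in the members' median level was 0.46, 0.30 and 0.25. The medians were 0.72, 0.26 and 0.66 for the cytoplasmic ribosomal proteins and 0.49, −0.01 and 0.39 for the respiratory chain subunits. These values share the siGFP libraries of both fractions.

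Among members that averaged 20 counts or more, the highest values were those of mRpS26, mRpL46 and mRpL20 with siPIWI (1.59, 1.52 and 1.47), of mRpL34, mRpS21 and mRpS5 with siPAF1 (2.34, 1.73 and 1.62) and of mRpL34, mRpL36 and mRpL52 in the double knockdown (2.37, 1.96 and 1.44). For mRpL34 with siPAF1 the SE was 0.82 and the adjusted p 0.922, and in the double knockdown 0.84 and 0.779. The lowest were mRpS23, mRpS30 and mRpS11 with siPIWI (−0.65, −0.62 and −0.48), mRpL13, mRpS30 and mRpS33 with siPAF1 (−0.94, −0.74 and −0.72) and mRpL13, mRpS30 and mRpS18B in the double knockdown (−0.84, −0.82 and −0.55). With fewer counts, mRpL33 had −1.37 and mRpL32 −0.92 with siPIWI, and mRpL48 −0.78 with siPAF1.

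Reads on the opposite strand of members were counted as a check on the sense values. In the annotation 37 members are overlapped by a gene on the opposite strand and 2 by one on the same strand. The opposite strand held over 10% of a member's counts in NUN for 18 members and in cyto for 1, mRpS23, whose CDS overlaps RpII33 and had 30.1% opposite counts in cyto. Of the 18 members, 14 are overlapped by a gene on the opposite strand. In NUN, mRpL14, for which the annotation shows no overlapping gene, had 759 opposite counts against 206 sense counts. The gene mRpL53, overlapped by AGO1 on the opposite strand and by CG33155 on the same strand, had 456 against 167. The median share over members was 5.32% in NUN and 0.118% in cyto. Over all CDSs the opposite strand held 4.70% to 6.79% of counts in a NUN library and 0.359% to 0.761% in a cyto library. With both strands counted together the medians of NUN over cyto were −3.07, −3.23, −3.13 and −3.79 with siPIWI, siPAF1, the double knockdown and siGFP.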

How the data were processed

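Per the file headers, the authors deposited unnormalized counts per library and transcript model, of unique and of all alignments, by region and strand. Bowtie is the aligner named in the submitters' processing notes, with no version. The other deposited columns are names, coordinates and lengths, and a normalised column was not used. The genome build is not given in the sources used here, and a later annotation was used for names only (13856 symbols found, 10871 of them current).

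The measure was the unique sense CDS count of the model with the longest CDS per gene (24995 models of 14229 genes, 13892 of them with a CDS; 7 members had several models). Tests were made in R 4.3.3. After filterByExpr and TMM scaling, each gene was fitted with a term for each group and robust estimation in edgeR 4.0.16 and tested by its quasi-likelihood F test, with Benjamini-Hochberg adjustment over all genes and a threshold of 0.05. NUN was fitted on 8 libraries and 8232 genes (TMM factors 0.973 to 1.05; coefficient of biological variation 21.2%), cyto on 8 and 5714 (0.649 to 1.37; 32.0%) and both fractions on 16 and 7982 (0.374 to 1.83; 25.1%). CPM is that of the 16-library fit for NUN over cyto and that of the fraction's fit elsewhere.

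In simulated data with log2 changes of 1 and 2 in 100 genes each, 23 and 93 were called in NUN (siPIWI over siGFP; 6 false calls among 8097 genes), 6 and 55 in cyto (2 among 5082) and 11 and 82 for NUN over cyto in siGFP (3 among 7720). Reads have no molecular identifiers and are not independent molecules.

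Genes were named by a rule: per comparison the 3 highest and 3 lowest members among those that passed, averaged 20 counts or more and did not overlap between groups or, with none, the 3 highest and 3 lowest of that mean; the 3 most and least abundant per fraction; the mRpS18 genes; mRpL10, mRpL11 and mRpL12; tko and bonsai; and from other lists the most abundant. The members, lists and rule were chosen with earlier results of these data known. After the lists were written, 4 names that did not belong were removed (Mtr4, swa, ClpX and ppr-1). Alternatives were the Wald test and the size factors of DESeq2 1.42.0, TMM without the 20 most abundant genes, no count filter, the library number as a block, both strands together, only the compared groups, and each library left out.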

Additional observations from a re-analysis of the deposited data

How the results depend on the processing

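At 2 libraries a group and these depths, simulated log2 changes of 1 were called in 23 of 100 genes in NUN, 6 in cyto and 11 for NUN over cyto, so changes of that size could be missed in each, and the part of depth in this was not tested. For NUN over cyto, 6 of 3454 member values over all settings lay above 0. In the siGFP comparison mRpS30 had 0.056 with DESeq2 size factors, 0.061 in the DESeq2 Wald test, 0.063 with only the compared groups and −0.68 to 1.09 over the libraries left out, and in the double knockdown −1.30 to 0.056. The gene mRpL33 ran from −2.14 to 5.70 with siGFP, the highest value being set against 1 cyto library in which it had 0 counts. The members called per siRNA ran from 61 to 69 with a library left out. DESeq2 size factors moved the median of all genes in these comparisons by over 0.1, to 0.54, 0.63, 0.59 and 0.68 with siPIWI, siPAF1, the double knockdown and siGFP, and the member median to −2.86, −2.99, −2.86 and −3.64. The DESeq2 Wald test gave −2.99 with siPAF1 and −2.87 in the double knockdown. Over the libraries left out in turn, the member medians of NUN over cyto ran from −3.48 to −2.67 with siPIWI, −3.63 to −3.03 with siPAF1, −3.25 to −2.97 in the double knockdown and −4.09 to −3.47 with siGFP.

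For the knockdowns in cyto, 1 member, mRpL34, was called lower with siPAF1 under no count filter, with the numbers as a replicate block (adjusted p = 0.0289) and with only the compared groups, and in the double knockdown with only the compared groups. The count with siPIWI ran from 0 to 1 over the libraries left out, the 1 being mRpL52 without OSS_147 of siPIWI. The cause was not tested.

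Over the libraries left out, member medians of the double knockdown in NUN ran from 0.0225 to 0.19 against siGFP and −0.0591 to 0.14 against siPIWI, and in cyto from −0.27 to 0.15 against siPAF1. No other setting moved a median of a comparison by more than the spread between libraries. In the other comparisons, 19 values of named members changed sign with 1 library left out. No member was called in any of those comparisons in the fit used for the results. In NUN over siGFP, mRpL13 ran from −1.20 to 0.55 with siPIWI, −1.38 to 0.36 with siPAF1 and −1.14 to 0.61 in the double knockdown, and mRpL14 from −0.074 to 3.48 with siPAF1. In the double knockdown against siPIWI, mRpS21 ran from −0.037 to 0.83 in NUN and mRpL17 from −1.11 to 0.36 in cyto. In cyto over siGFP, mRpS7 ran from −0.19 to 1.04 and mRpS10 from −0.29 to 0.97 with siPIWI, and mRpS30 from −0.17 to 1.80 in the double knockdown. In the double knockdown against siPAF1 in cyto, mRpS5 ran from −0.67 to 1.08, mRpS11 from −0.039 to 0.75 and mRpL49 from −0.94 to 0.15. For the change of the fraction difference, mRpS23 ran from −2.03 to 0.12 and mRpS11 from −1.13 to 0.36 with siPIWI, mRpL13 from −1.61 to 0.15 with siPAF1 and from −1.51 to 0.25 in the double knockdown, and mRpS30 from −1.98 to 0.12 in the double knockdown.

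The library number was not taken to pair the samples, so NUN over cyto was tested without a term that pairs the fractions of a culture. Deviations from group means of the same number correlated from −0.32 to 0.66 between groups of a fraction and from −0.01 to 0.17 between fractions. With the number as a replicate block, the member medians in cyto were −0.46, −0.41 and −0.46 over siGFP, and those of NUN over cyto were −3.05, −3.30, −3.16 and −3.75, with siGFP last.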
